A study of Mus musculus with 6 samples.

Results

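A group of 4 genes of the Ifitm family is described here, as measured in CD8 T cells labelled as a knockout of the chromatin enzyme Utx and in wild-type cells. Ifitm1, Ifitm2, Ifitm3 and Ifitm10 were taken by name, and they are 4 of the 25655 genes in the deposited tables. They were selected on their CPM difference between Utx KO and WT cells, so their own differences are given as a description without a test. The cells came from spleens of female C57BL/6 mice labelled Utx KO (3 biological replicates) or WT (3 biological replicates). Cells of both genotypes were enriched for naive CD8 T cells, activated for 2 days on plate-bound antibodies against TCR-β (3 μg/ml) and CD28 (1 μg/ml) with interleukin 2 (10 ng/ml), and kept for 3 more days in interleukin 2 (10 ng/ml) without the antibodies. RNA was therefore compared at day 5. The labels name neither the Utx allele, nor a Cre driver, nor the age of the mice, and they do not say whether each replicate is a separate animal, so the spread between replicates may be partly technical.

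Interferon-induced transmembrane (IFITM) proteins are small proteins that sit in cell membranes and hinder the fusion of enveloped viruses with them. Ifitm1 is found mainly at the cell surface, whereas Ifitm2 and Ifitm3 lie mostly in endosomes and lysosomes. Type I and type II interferons induce them through STAT and IRF factors, and in mice Ifitm3 protects lung-resident memory CD8 T cells against influenza virus. Ifitm10 is the little-characterised relative of the group and is not a classical interferon target. Utx, encoded by Kdm6a on the X chromosome, removes methyl groups from lysine 27 of histone H3, a mark of repressed genes.

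The start regions of the 3 clustered members are shown because they differ in the interferon-type sequences they hold. They are the RefSeq (GRCm38.p6) windows from 250 bases before to 30 bases after the annotated start, printed 5′ to 3′ along the strand of the gene. They lie at chr7:140967826-140968105 (plus strand, Ifitm1), chr7:140955932-140956211 (minus strand, Ifitm2) and chr7:141010715-141010994 (minus strand, Ifitm3). Capitals mark matches on either strand to GAAA, any 2 bases, GAAA (the core of the interferon-stimulated response element) and to TTCNNNGAA, the site of STAT dimers.
Ifitm1: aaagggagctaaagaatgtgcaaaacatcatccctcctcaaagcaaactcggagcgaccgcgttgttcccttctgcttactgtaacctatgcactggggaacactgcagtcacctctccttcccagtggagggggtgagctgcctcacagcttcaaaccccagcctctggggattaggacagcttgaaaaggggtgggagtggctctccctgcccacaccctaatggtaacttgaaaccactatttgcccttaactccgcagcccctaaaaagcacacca
Ifitm2: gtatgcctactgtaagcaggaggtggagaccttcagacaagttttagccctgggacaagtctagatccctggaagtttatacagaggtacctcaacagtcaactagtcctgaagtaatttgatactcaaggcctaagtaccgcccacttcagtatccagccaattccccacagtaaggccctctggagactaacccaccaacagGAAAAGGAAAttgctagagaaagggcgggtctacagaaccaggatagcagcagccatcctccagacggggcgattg
Ifitm3: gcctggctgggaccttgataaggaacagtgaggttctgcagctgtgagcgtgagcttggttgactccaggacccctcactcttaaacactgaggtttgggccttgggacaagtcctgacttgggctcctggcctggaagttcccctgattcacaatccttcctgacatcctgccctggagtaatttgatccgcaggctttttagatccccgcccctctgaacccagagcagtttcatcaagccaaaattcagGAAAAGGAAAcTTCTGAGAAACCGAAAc

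The Ifitm3 window held 2 cores, at bases 3 to 12 and 20 to 29 counted from the start, and between them a STAT-type match at bases 14 to 22 that overlaps the second core. The Ifitm2 window held 1 core, whose first base lies 46 bases before the start, and no STAT-type match. Neither sequence was found in the Ifitm1 window, which covers the RefSeq start at base 140968076 only, whereas the GENCODE model of the gene begins upstream of it at 140967221. For comparison, 3.27% of the 32817 start windows of all genes held the core and 7.83% held the STAT-type sequence. A TATAAA sequence, present in 13.1% of all windows, was found on neither strand for Ifitm1 and Ifitm3. It was matched on the reverse strand for Ifitm2, from 175 bases before the start. The 3 windows held similar numbers of CpG, 5 for Ifitm1, 4 for Ifitm2 and 4 for Ifitm3, against a median of 6 over all windows. Ifitm10 has 3 annotated start windows, with 29, 24 and 2 CpG, and none held any of these motifs. A match is a description of letters only, and binding was not measured.

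Libraries were made from 500 ng of total RNA by a 3′ mRNA protocol, which samples the end of each polyadenylated RNA, so each transcript gives about 1 read whatever its length and levels of different genes can be set side by side. The deposited values are reads scaled to a common library total (CPM), which converted to whole reads for 100% of values, with 1619085 to 2517655 reads per Utx KO library and 1827703 to 2529113 per WT library. Kdm6a itself had 27.8, 39.4 and 31.5 CPM in Utx KO and 44.3, 49.3 and 53.6 CPM in WT libraries (log2 fold change −0.57, SE 0.15, limma adjusted p = 0.0123). That call was lost with DESeq2 (adjusted p = 0.0985) and without Utx KO replicate 1 (0.0554), WT replicate 2 (0.0528) or WT replicate 3 (0.0708). The 3′ reads may lie outside the deleted part, so they are a weak check of the labels. All 9 markers of CD8 T cells were present, and they summed to 2644 to 2718 CPM in Utx KO and 2404 to 2503 CPM in WT libraries. They did not move together. By limma 4 were called higher in Utx KO (Cd5, Cd3d, Cd3e and Cd8b1) and 1, Cd2, lower (55.6% called, against 10.8% of all genes tested). Of 10 macrophage and monocyte markers 6 were at 0 in every library, among them Adgre1 and Lyz2, and all 8 neutrophil markers were at 0. The macrophage and monocyte markers summed to 7.94 to 12.4 CPM in Utx KO and 7.11 to 8.76 CPM in WT libraries, mostly from Cd68. Cd68 averaged 8.82 CPM in Utx KO and 6.02 CPM in WT libraries and was not called (limma adjusted p = 0.331). Summed B-cell markers stood at 0.571 to 1.99 CPM in Utx KO and 2.76 to 5.47 CPM in WT libraries, with Ms4a1, Cd79a, Pax5 and Blk at 0 throughout. Cd79b alone made up most of that sum in every library, and it was not called (limma adjusted p = 0.097). Summed dendritic-cell markers stood at 1.99 to 5.56 CPM in Utx KO and 6.45 to 11.9 CPM in WT libraries, with Flt3, Siglech, Clec9a and Cd209a at 0 throughout. Here Zbtb46 alone made up most of the sum in every library, and it was not called either (limma adjusted p = 0.108). Erythroid and platelet markers summed to 2.28 to 3.09 CPM in Utx KO and 0 to 0.461 CPM in WT libraries. CD4 T-cell markers summed to 11.1 to 13.5 CPM in Utx KO and 11.5 to 17.5 CPM in WT libraries, with Cd4 at 0 throughout. For NK-cell markers the sums were 0.571 to 1.85 CPM in Utx KO and 1.38 to 1.64 CPM in WT libraries. Stromal and endothelial markers gave 25.8 to 37.7 CPM in Utx KO and 30.4 to 34.6 CPM in WT libraries, mostly from Pecam1. The part of these cells in the differences below was not tested.

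In CD8 T cells labelled Utx KO, Ifitm1 transcripts stood at 43.9% of the WT mean and Ifitm3 transcripts at 64.0%, whereas Ifitm2 (89.2%) and Ifitm10 overlapped between the genotypes. Summed over the 3 clustered genes, the level was 469 ± 12.7 CPM in Utx KO and 827 ± 21.5 CPM in WT cells (SD, n = 3 each). Ifitm1 made up 75.1% of that difference, Ifitm3 20.5% and Ifitm2 4.37%. All values are from bulk RNA, in which fewer cells carrying a transcript and less transcript per cell cannot be told apart.

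Ifitm1 (ENSMUSG00000025491, GRCm38 chr7:140967221-140969825, plus strand) was the most abundant of the family in every library and ranked 465 in mean level among the 10590 genes tested. It had 215, 217 and 199 CPM in Utx KO replicates 1, 2 and 3, and 486, 459 and 492 CPM in WT replicates 1, 2 and 3. The highest Utx KO library lay far below the lowest WT library. Group means were 210 ± 9.57 CPM in Utx KO and 479 ± 17.2 CPM in WT (SD, n = 3 each), and read counting alone gives an SD of 10.5 CPM in Utx KO and 15.0 CPM in WT. The difference of the means was −268 CPM. The difference of log2(CPM + 1) was −1.18 (SE 0.06, 95% interval −1.31 to −1.05), rank 153 from the lowest. These values rest on 541, 380 and 323 reads in Utx KO and 1228, 997 and 899 reads in WT libraries.

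Ifitm3 (ENSMUSG00000025492, GRCm38 chr7:141009586-141010770, minus strand), the endosomal virus-restriction factor, was also lower in Utx KO cells, by a smaller factor. It had 142, 133 and 116 CPM in Utx KO and 202, 209 and 199.7 CPM in WT libraries, again without overlap. Means were 130 ± 13.1 CPM in Utx KO and 204 ± 5.02 CPM in WT (SD, n = 3 each). The difference of log2(CPM + 1) was −0.64 (SE 0.08, 95% interval −0.81 to −0.47). It rests on 357, 233 and 188 reads in Utx KO and 510, 454 and 365 reads in WT libraries.

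Ifitm2 (ENSMUSG00000060591, GRCm38 chr7:140954837-140955987, minus strand), which lies between Ifitm5 and Ifitm1, overlapped between the genotypes. It had 121, 126 and 139 CPM in Utx KO and 127, 145 and 159.8 CPM in WT libraries. Utx KO replicate 3 lay above WT replicate 1. Means were 128 ± 9.43 CPM in Utx KO and 144 ± 16.2 CPM in WT (SD, n = 3 each), and the difference of log2(CPM + 1) was −0.16 (SE 0.09, 95% interval −0.35 to 0.03). Of the 251 possible 50-nt pieces of the last 300 nt of Ifitm2 transcripts, 27.5% also occur in 5 other gene models. None of these models has a value in the deposited data. The reads of Ifitm2 are therefore less certain than those of Ifitm1 and Ifitm3, for which the share was 0%. In addition, 40.9% of its exon bases overlap the gene model Gm45717 on the same strand, which is listed at 0.

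Ifitm10 (ENSMUSG00000045777, GRCm38 chr7:142325837-142373753, minus strand) was close to the detection limit. It had 3.97, 3.43 and 1.85 CPM in Utx KO and 3.16, 3.23 and 3.28 CPM in WT libraries, that is 10, 6 and 3 reads in Utx KO and 8, 7 and 6 reads in WT. The groups overlapped, and the difference of log2(CPM + 1) was −0.09 (SE 0.37, 95% interval −0.85 to 0.67). A difference as large as that of Ifitm3 was therefore not detectable at this depth. Its sign turned without Utx KO replicate 3 (0.15).

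Ifitm5, known for its role in bone mineralisation, had 2 reads over the Utx KO libraries and 3 over the WT libraries. Ifitm6 had 2 reads over the Utx KO libraries and 0 over the WT libraries, and Ifitm7 had 0 in all 6. These 3 genes were not tested. With 3 reads as the limit that a count of 0 allows, 1.19 to 1.85 CPM per Utx KO library and 1.19 to 1.64 CPM per WT library could have gone unseen. That limit holds only for libraries without a read of the gene, and is higher where Ifitm5 or Ifitm6 had reads. Intervals and limits from reads cover counting error only.

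**Figure D1:**
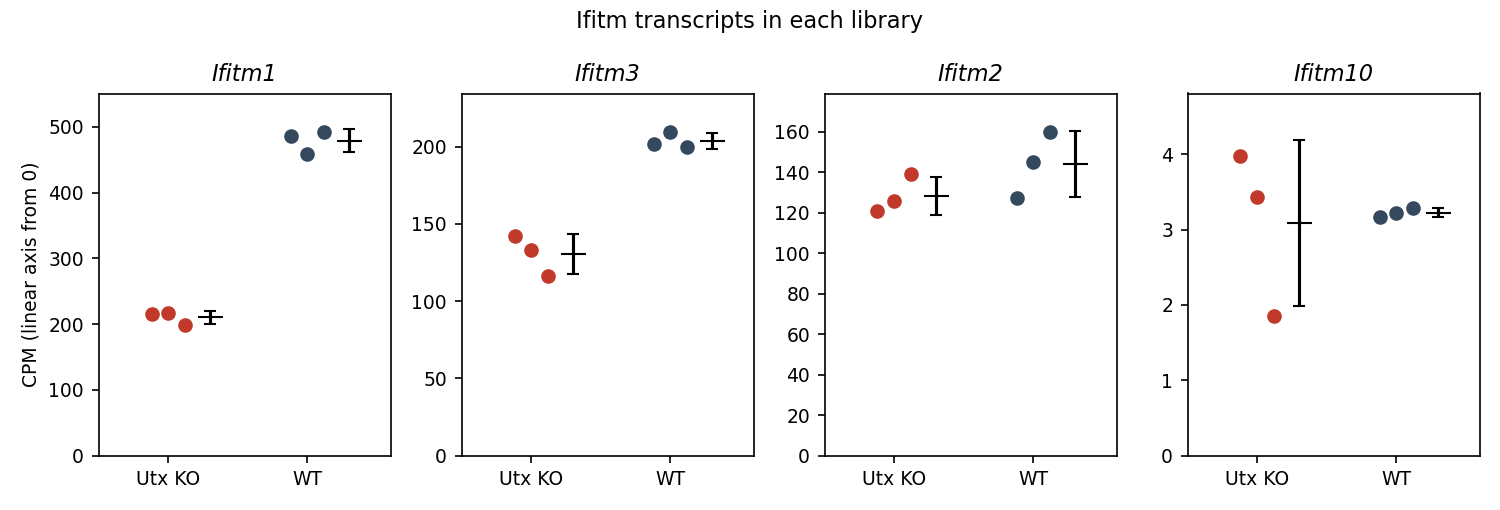
CPM of Ifitm1, Ifitm3, Ifitm2 and Ifitm10 (linear vertical axes from 0, each with its own scale) in each Utx KO library and each WT library. Points are libraries, and bars show the mean ± SD of 3. The Utx KO points lie below all WT points for Ifitm1 and Ifitm3 and overlap them for Ifitm2 and Ifitm10.

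Across the table, limma-trend with Benjamini-Hochberg adjustment called 10.8% of the 10590 genes at the 0.05 threshold: 583 (5.51% of all) were lower and 559 (5.28%) higher. DESeq2 called 551 genes, and 754 were called without WT replicate 2. All 4 members passed the filter on low values. Ifitm1 and Ifitm3 were among the genes called lower and 0 members were among those called higher (0 also at an unadjusted p under 0.05), and edgeR, DESeq2 and limma-voom gave the same 2 and 0. Every Utx KO library lay below every WT library for Ifitm1 and Ifitm3, as for 12.6% of all genes. As the members were chosen with this contrast known, nothing is read from these counts.

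The same reads can be given as shares of the 3 clustered genes, which add nothing independent of the levels above. Ifitm1 made up 45.0, 45.6 and 43.9% of the reads of the 3 clustered genes in Utx KO libraries and 59.6, 56.5 and 57.8% in WT libraries. The Wilson 95% intervals of these shares ran from 40.3 to 49.0% over the Utx KO libraries and from 54.1 to 61.7% over the WT libraries. Ifitm2 made up 25.3, 26.4 and 30.6% in Utx KO and 15.6, 17.8 and 18.8% in WT libraries, also without overlap. Its level was not higher in Utx KO cells, and its larger share there goes with the lower levels of Ifitm1 and Ifitm3. The share of Ifitm3 was 27.7% ± 2.09 in Utx KO and 24.6% ± 1.13 in WT cells (SD, n = 3 each) and overlapped.

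Set against each other, there were 1.65 ± 0.185 reads of Ifitm1 per read of Ifitm2 in Utx KO cells and 3.35 ± 0.402 in WT cells. There were 1.62 ± 0.102 reads of Ifitm1 per read of Ifitm3 in Utx KO and 2.36 ± 0.141 in WT cells (SD, n = 3 each). In WT libraries the order was Ifitm1, Ifitm3, Ifitm2 and Ifitm10 in all 3 replicates. In Utx KO cells Ifitm3 and Ifitm2 did not differ beyond their spread. Their ratio there was 1.02 ± 0.172 (SD, n = 3), and in replicate 3 Ifitm2 stood above Ifitm3.

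**Figure D2:**
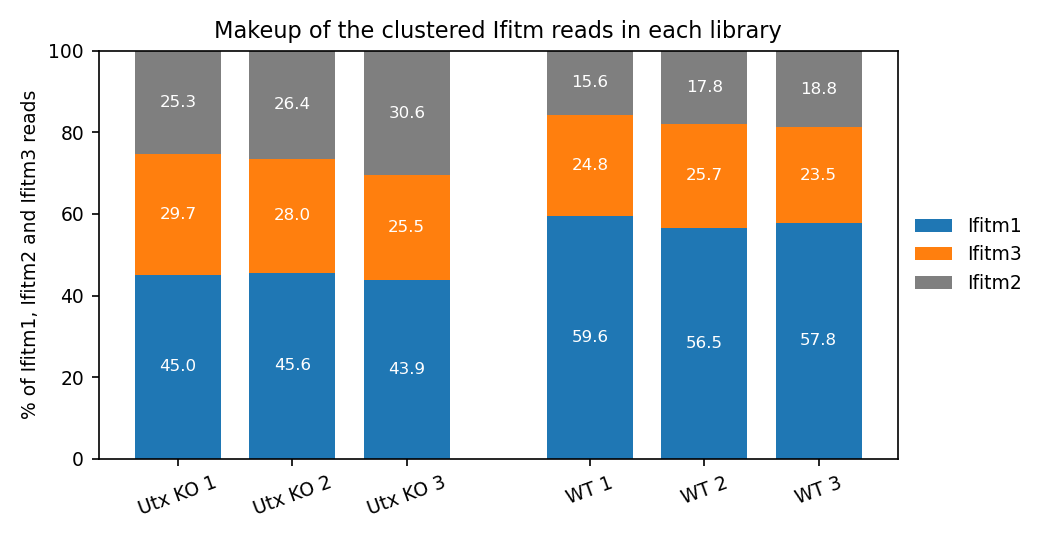
Share of Ifitm1, Ifitm3 and Ifitm2 (vertical axis, percent of the reads of the 3 genes) in each Utx KO and each WT library. Ifitm1 takes 43.9 to 45.6% in Utx KO and 56.5 to 59.6% in WT libraries, and the share of Ifitm2 is 25.3 to 30.6% in Utx KO and 15.6 to 18.8% in WT libraries.

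The coding sequences of the 3 clustered members resemble each other over the bases that align, with gaps left out. Of these aligned bases, 81.6% were identical between Ifitm1 and Ifitm2, 81.9% between Ifitm1 and Ifitm3 and 80.8% between Ifitm2 and Ifitm3. By the same measure Ifitm10 shared 65.9 to 69.6% with the other members. Likeness did not follow position: Ifitm7, on chromosome 16, shared 89.4% with Ifitm1, against 64.5% for Ifitm5 and 68.8% for Ifitm6, which lie near Ifitm1. Ifitm1 has the shortest coding sequence of the 4 members, with 321 nt, against 435 nt for Ifitm2, 414 nt for Ifitm3 and 606 nt for Ifitm10. The label under which the 4 genes were grouped speaks of a single cluster, but only Ifitm1, Ifitm2 and Ifitm3 lie together with Ifitm5 and Ifitm6. Ifitm2 and Ifitm1 are 11.2 kb apart and Ifitm1 and Ifitm3 39.8 kb, whereas Ifitm10 begins 1.31 Mb beyond Ifitm6 on the same chromosome.

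Genes around the members were tested in the same fit. Of 39 annotated genes with an exon within 250 kb of the Ifitm1 to Ifitm3 span, 13 were tested and 0 passed the limma test, with 3 at an unadjusted p under 0.05. With 10.8% of all genes called, a count of 0 among so few genes is near the background. The unadjusted count is near it too, as 2408 of all 10590 genes had an unadjusted p under 0.05. EdgeR called 0 of 10, DESeq2 0 of 19 and limma-voom 0 of 10. The nearest tested gene on the left, Pgghg, an enzyme that acts on the sugar of collagen hydroxylysine, lies 7.17 kb away. It had 3.69 ± 1.37 CPM in Utx KO and 6.89 ± 2.41 CPM in WT cells (SD, n = 3 each; log2 fold change −0.75, limma adjusted p = 0.188). The nearest on the right, the glycosyltransferase gene B4galnt4, had 3.63 ± 0.416 CPM in Utx KO and 2.43 ± 1.71 CPM in WT cells (0.59, limma adjusted p = 0.453). Without Utx KO replicate 1, Sirt3, the mitochondrial deacetylase gene, was called lower (log2 fold change −1.67), and it is named because of that. With all 6 libraries it was not called (−1.09, limma adjusted p = 0.165). Sirt3 had 3.97, 0 and 1.24 CPM in Utx KO and 4.35, 3.69 and 3.28 CPM in WT libraries. Its values in Utx KO replicates 2 and 3 lie near the limit that a count of 0 allows.

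Beside Ifitm10, 3 of 40 annotated genes were tested. Ctsd, which encodes the lysosomal protease cathepsin D and lies 2.16 kb from Ifitm10, fell to 148 ± 3.68 CPM in Utx KO cells, against 243 ± 6.34 CPM in WT cells (SD, n = 3 each). Its log2 fold change was −0.71 (limma adjusted p = 1.84e-07). Without Utx KO replicate 2, Lsp1, a gene for an actin-binding protein of leukocytes, was also called lower (log2 fold change −0.29), again named for that reason.

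**Figure D3:**
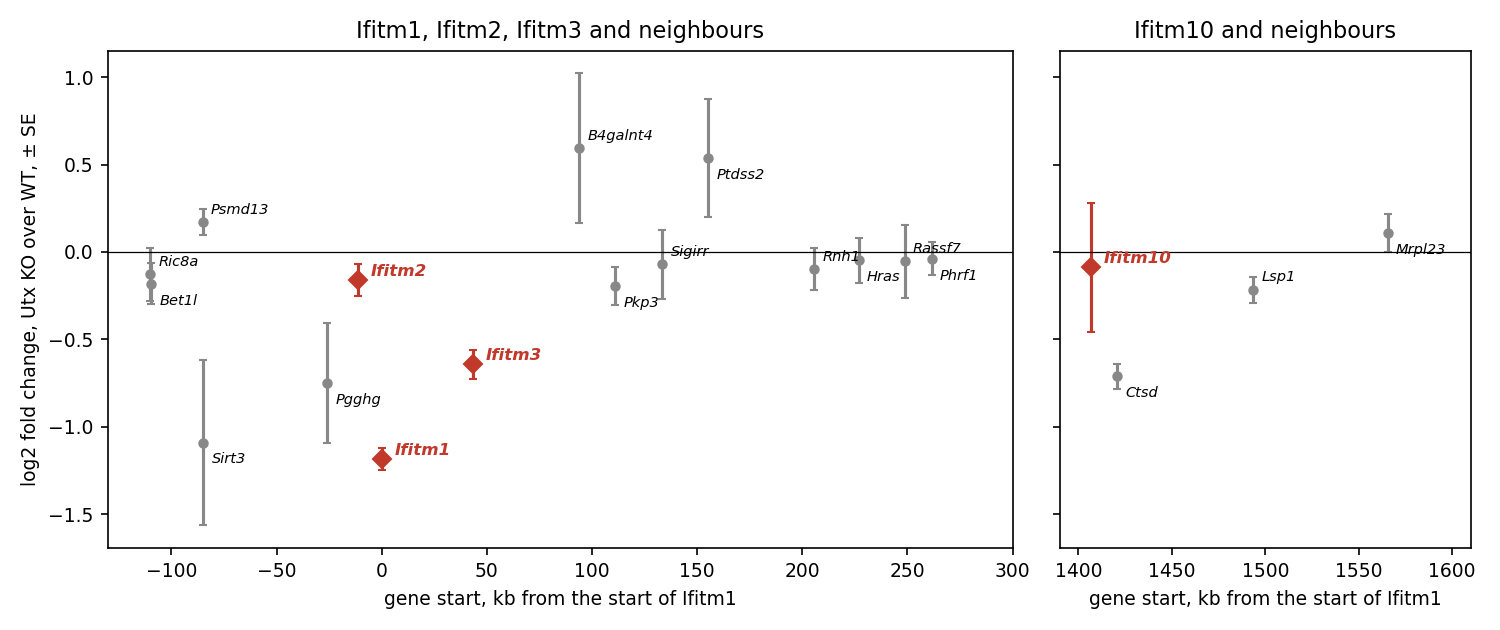
Log2 fold change of CPM + 1, Utx KO over WT (vertical axis, ± SE), against the distance of each gene's start from that of Ifitm1 (horizontal axis, kb). Red diamonds are Ifitm genes and grey points the other tested genes within 250 kb. Ifitm1 lies at −1.18 and Ifitm3 at −0.64, and of the neighbours only Ctsd, at −0.71, passed the limma test with all 6 libraries.

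Many other interferon-stimulated genes were lower in Utx KO cells too. Of 92 such genes on a list without Ifitm genes, 82 were tested, 27 fell and 0 rose by limma, with 39 lower and 2 higher at an unadjusted p under 0.05. The share that fell was 32.9%, against 5.51% of all genes tested. At an unadjusted p under 0.05 there were 2408 of all 10590 genes. This list and the 2 lists below were chosen with earlier results of these data known, so their shares are a description. The median log2 fold change was −0.34, against 0.0067 over all genes, and 68 of the 82 lay below 0. EdgeR called 27 lower and 0 higher of 72 fitted, DESeq2 21 and 0 of 92 and limma-voom 26 and 0 of 72. Over all genes, edgeR called 560 of 8832 lower, DESeq2 310 of 13464 and limma-voom 562 of 8832. In the limma fit without Utx KO replicate 2, 1 gene of the list was called higher. Among the 82, 5 had a lower log2 fold change than Ifitm1, 23 a lower one than Ifitm3 and 55 a lower one than Ifitm2.

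Genes of guanylate-binding proteins, GTPases that attack the membranes around intracellular microbes, were among those that fell. Gbp7 fell to 333 ± 6.02 CPM in Utx KO cells, against 688 ± 14.2 CPM in WT cells (log2 fold change −1.04, limma adjusted p = 4.31e-13). Gbp2 fell to 104 ± 11.8 CPM in Utx KO, against 193 ± 1.79 CPM in WT cells (−0.89, limma adjusted p = 1.07e-07). Gbp4 fell as well, to 65.0 ± 6.09 CPM in Utx KO, against 146 ± 20.03 CPM in WT cells (−1.15, limma adjusted p = 4.16e-08), although 26.0% of its 3′ pieces occur in other genes. All of these are mean ± SD with n = 3 each.

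The lowest of the named interferon-stimulated genes was Isg20, an exonuclease that degrades viral RNA, with 24.8 ± 1.75 CPM in Utx KO and 85.8 ± 2.70 CPM in WT cells (log2 fold change −1.75, limma adjusted p = 4.08e-10). Zbp1, a sensor of nucleic acids that can trigger cell death, fell to 21.7 ± 2.46 CPM in Utx KO, against 52.2 ± 5.18 CPM in WT cells (−1.23, limma adjusted p = 3.62e-06). Iigp1, an immunity-related GTPase, fell to 82.6 ± 15.5 CPM in Utx KO, against 147 ± 3.57 CPM in WT cells (−0.84, limma adjusted p = 4.5e-06). The DNA-sensor relatives Ifi206 (−1.17, limma adjusted p = 1.23e-05) and Ifi209 (−1.38, limma adjusted p = 5.9e-07) fell too, and 49.4% of the 3′ pieces of Ifi209 are shared with Ifi214.

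Values are also given for 3 classical interferon targets that were named whatever their result. Isg15, a ubiquitin-like protein, had 6.91 ± 2.13 CPM in Utx KO and 12.9 ± 1.79 CPM in WT cells (log2 fold change −0.85, limma adjusted p = 0.0479), a call that was lost under 9 of 15 alternatives (adjusted p 0.0327 to 0.335). Ifit3, part of the IFIT antiviral complex, had 1.42 ± 1.24 CPM in Utx KO and 1.53 ± 0.673 CPM in WT cells (−0.14, limma adjusted p = 0.907). These levels lie near the limit that a count of 0 allows, and the sign turned under 3 of 12 alternatives, so a difference of Ifit3 could hardly be seen. Bst2, the tethering protein of budding viruses, gave −0.16 (limma adjusted p = 0.646), close to the value of Ifitm2.

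The interferon-response core was present in start windows of 33 of the 62 tested interferon-stimulated genes that have one (53.2%), and in 3.63% of the 8425 tested genes with a window. Among those of the 62 that fell, 13 of 21 held it, and among those not called 20 of 41 did. The STAT-type sequence was held by 3 of 21 that fell and 11 of 41 not called, and TATAAA by 9 of 21 and 6 of 41. Whether any of these sequences bears on the size of the difference was not tested.

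**Figure D4:**
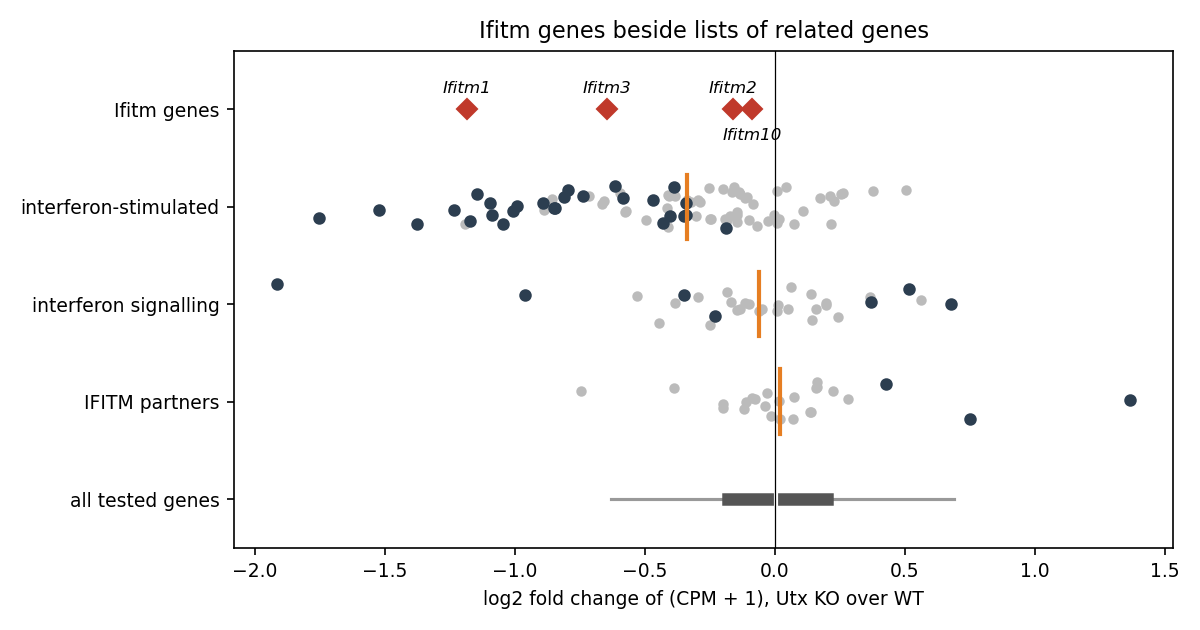
Log2 fold change of CPM + 1, Utx KO over WT (horizontal axis), for the Ifitm genes (red diamonds) and for the tested members of 3 related lists, of which dark points passed the limma test and grey points did not. Orange bars are list medians, and the bottom row shows the median (white), the middle 50% (thick) and the central 90% (thin) of all 10590 genes. The interferon-stimulated median is −0.34 and lies left of the all-gene median of 0.0067.

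Of the genes that carry the interferon signal, 33 of a list of 34 were tested, 3 rose and 4 fell (21.2%, against 10.8% of all genes), with a median log2 fold change of −0.06. Ifng, the gene of interferon γ, fell to 1.32 ± 0.236 CPM in Utx KO cells, against 7.82 ± 1.56 CPM in WT cells (−1.91, limma adjusted p = 0.000527). Its Utx KO level lies near the limit that a count of 0 allows. Among receptor subunits, Ifnar2 rose to 138 ± 1.14 CPM in Utx KO, against 106 ± 6.09 CPM in WT cells (0.37, limma adjusted p = 0.00488; DESeq2 adjusted p = 0.0533), and 23.9% of its 3′ pieces occur in another gene model. For Ifnar1 (limma adjusted p = 0.214), Ifngr1 (0.403) and Ifngr2 (0.202) the test was not passed. All of these are mean ± SD with n = 3 each.

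Of the receptor-bound kinases, Jak1 fell to 549 ± 19.0 CPM in Utx KO cells, against 643 ± 23.1 CPM in WT cells (log2 fold change −0.23, limma adjusted p = 0.00463). Jak2 gave −0.53 (limma adjusted p = 0.0932) and passed without Utx KO replicate 3 (adjusted p = 0.0175) and in the fit with a replicate block (adjusted p = 0.0428), and Tyk2 gave −0.25 (limma adjusted p = 0.503). Of the transcription factors that act on interferon-stimulated genes, Stat2 (limma adjusted p = 0.352), Irf1 (0.483) and Irf9 (0.976) did not pass the test. Irf7, which amplifies type I interferon responses, had 5.16 ± 1.73 CPM in Utx KO and 11.1 ± 3.70 CPM in WT cells (−0.96, limma adjusted p = 0.0467), and it lost the call under 9 of 14 alternatives (adjusted p 0.0261 to 0.292).

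Among phosphatases that restrain JAK and STAT proteins, Ptpn6 rose to 204 ± 7.12 CPM in Utx KO, against 127 ± 3.94 CPM in WT cells (log2 fold change 0.68, limma adjusted p = 9.57e-07). Ptpn1 rose to 391 ± 29.6 CPM in Utx KO, against 273 ± 14.7 CPM in WT cells (0.52, limma adjusted p = 7.56e-06). The related phosphatase genes Ptpn2 (0.14, limma adjusted p = 0.445) and Ptpn11 (−0.17, limma adjusted p = 0.361), named after their values were seen, did not pass the test. Cish, a feedback inhibitor of cytokine signalling, fell to 168 ± 6.77 CPM in Utx KO, against 214 ± 9.44 CPM in WT cells (−0.35, limma adjusted p = 0.00222). These are mean ± SD with n = 3 each. On the same list, Socs1 (0.06, limma adjusted p = 0.802) and Socs3 (0.20, limma adjusted p = 0.595), also named after their values were seen, did not pass the test.

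Of 25 genes for enzymes and binding partners described for IFITM proteins, all tested, 3 rose and 0 fell (12% called, against 10.8% of all genes), with 7 higher and 1 lower at an unadjusted p under 0.05. Over all 10590 genes, 2408 had an unadjusted p under 0.05. The median log2 fold change of the partner genes was 0.02. EdgeR called 2 higher and 0 lower of 23 fitted, DESeq2 1 and 0 of 25 and limma-voom 2 and 0 of 23. Over all genes, edgeR called 546 of 8832 higher, DESeq2 241 of 13464 and limma-voom 546 of 8832. Ap2s1, a subunit of the adaptor that draws Ifitm3 into endocytic vesicles, rose to 93.0 ± 23.5 CPM in Utx KO, against 54.6 ± 11.2 CPM in WT cells (0.75, limma adjusted p = 0.00143). Cd81, the tetraspanin that associates with human IFITM1, rose to 6.70 ± 2.11 CPM in Utx KO, against 2.02 ± 1.07 CPM in WT cells (1.37, limma adjusted p = 0.0173), and Setd7, a methyltransferase of human IFITM3, rose as well (0.43, limma adjusted p = 0.0344). Both of these calls were lost under several alternatives, with adjusted p up to 0.146 for Cd81 and 0.248 for Setd7. The WT level of Cd81 lies near the limit that a count of 0 allows. Its log2 fold change ranged from 0.73 to 1.75 over the 12 alternatives that gave a value, and edgeR and limma-voom gave none. Without Utx KO replicate 2 or without WT replicate 1, only 1 partner gene, Ap2s1, was called. Zmpste24, a protease that acts with IFITM proteins (limma adjusted p = 0.351), and Nedd4, the ubiquitin ligase of IFITM3 (0.299), did not pass. Of 10 genes in the tables for more distant relatives with the same membrane fold, 2 were tested and 0 were called by limma, with 0 also at an unadjusted p under 0.05 and 0 of 6 by DESeq2.

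Genes whose pattern over the 6 libraries was most like that of each member were ranked by the root-mean-square difference of centred log2(CPM + 1), among 7452 genes with a mean of at least 10 CPM. The pattern includes the genotype difference by which the members were chosen, so the ranking is a description. Nearest to Ifitm1 were Slc7a5 (0.0513), Rps15a (0.0718), Plac8 (0.0924), Gbp7 (0.0928) and Slfn8 (0.0983). Slc7a5, which carries large neutral amino acids into activated T cells, averaged 59.0 ± 4.05 CPM in Utx KO and 138 ± 10.3 CPM in WT cells (SD, n = 3 each). Of the 3′ pieces of Rps15a 39.5% occur in other genes, mostly its pseudogenes.

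Nearest to Ifitm3 were Elk3 (0.0322), Lamtor4 (0.0428), Tmem164 (0.0513), Abcb1b (0.0575) and F2r (0.0671). F2r, a thrombin receptor, averaged 176 ± 10.7 CPM in Utx KO and 278 ± 9.74 CPM in WT cells (SD, n = 3 each). Ifitm3 itself ranked 99 for likeness to Ifitm1 (0.279) and Ifitm2 ranked 1628 (0.529). In the other direction, Ifitm1 ranked 1372 for likeness to Ifitm3 and 7253 for likeness to Ifitm2. Nearest to Ifitm2 were Bfar (0.0468), Ralgapa2 (0.0489), Tsc22d4 (0.0511), Fryl (0.0537) and Cse1l (0.0543). For the low gene Ifitm10 they were Zfp330 (0.0700), Rsl24d1 (0.0758), Crls1 (0.0838), Tdp2 (0.0849) and Ift27 (0.0854).

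Over 16 alternative settings the log2 fold change ranged from −1.21 to −1.14 for Ifitm1, from −0.71 to −0.56 for Ifitm3 and from −0.25 to −0.08 for Ifitm2. Ifitm10 ranged from −0.25 to 0.15 over the 13 settings that gave it a value.

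**Figure D5:**
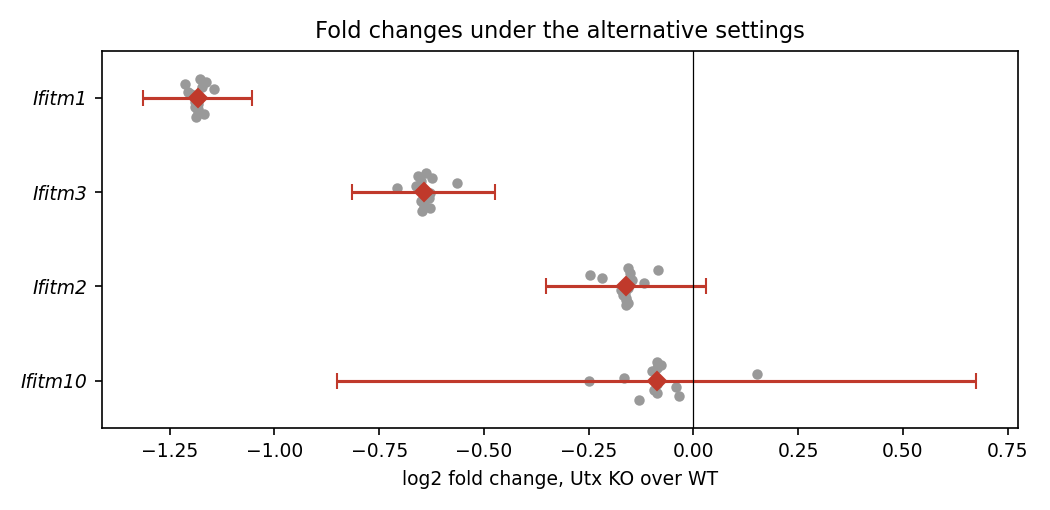
Log2 fold change, Utx KO over WT (horizontal axis), of each Ifitm gene as reported (red diamond with its 95% interval) and under the alternative settings (grey points, spread vertically for legibility). The points of Ifitm1 and Ifitm3 lie within −1.21 to −1.14 and −0.71 to −0.56, and those of Ifitm10 fall on both sides of 0.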

How the data were processed

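RNA of 3 Utx KO and 3 WT CD8 T-cell cultures was sequenced from transcript 3′ ends. The authors deposited a CPM value for each of 25655 genes per library, per the file headers; the submitters' processing notes name GRCm38 and mm10. Aligner, counter and strand handling: not given in the sources used here. Reads were recovered by dividing by the value of 1 read (100% of values whole, tolerance 0.001).

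The members and lists were chosen with earlier results of these data known. Log2(CPM + 1) of the 10590 genes with at least 1 CPM in 3 libraries was fitted by limma-trend (limma 3.58.1, R 4.3.3) with genotype as the only term, two-sided, with Benjamini-Hochberg adjustment over all genes and a threshold of 0.05. Folds on this scale understate changes of low genes. EdgeR 4.0.16 (1106 of 8832 genes called), DESeq2 1.42.0 and limma-voom on the reads, other pseudocounts, filters and scalings, and leaving out libraries were alternatives; scripts were tested on simulated data. Named genes are the members, the called list members with the lowest adjusted p (up to 8, 6 and 4 per list), a fixed set of pathway genes, the nearest neighbours and the 5 most alike genes per member. A gene of the fixed set is not reported here. Symbols matched 25600 IDs; coordinates are from GENCODE on GRCm38 and start windows from RefSeq. Pieces of 50 nt from the last 300 nt of the transcripts of 60 named genes were searched in all other genes, and 7 had at least 20% found elsewhere (Ifitm2, Gbp4, Ifi209, Ifnar2, Rps15a, Rsl24d1, Slfn8).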

Additional observations from a re-analysis of the deposited data

How the results depend on the processing

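The number of genes called over the whole table was 1142 and ranged from 551 with DESeq2 to 1169 with a pseudocount of 5 CPM. Leaving out single libraries gave 754 to 1042 called genes, the lowest without WT replicate 2. The IFITM partner count fell to 1 with DESeq2 and was 1 to 3 with a library left out, and the neighbour count was 1 to 2 with a library left out. The interferon-stimulated count stayed between 21 and 31 and the signalling count between 5 and 8. All log2 fold changes of the members stayed within the spread between replicates of the reported values under the alternatives that gave one. Ifitm10 had no value with edgeR, limma-voom or the filter of 10 CPM, and at 3 to 10 reads per library its depth limits any statement on it. Of the 56 other genes that the naming rule gave, 9 changed their call under some alternative and 0 changed direction among called values. Sirt3 and Lsp1, named for a call with a library left out, are not among the 56. The median fold change of all genes shifted by at most about 0.01 on the log2 scale.

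Replicate numbers did not pair the libraries: deviations of same-numbered Utx KO and WT libraries correlated at 0.0060, −0.0027 and −0.0096 over genes. A fit with the replicate block called 1065 genes, 27 interferon-stimulated genes (0 higher, 27 lower), 8 signalling genes, 3 partners and 1 neighbour, and gave −1.18 for Ifitm1, −0.64 for Ifitm3, −0.16 for Ifitm2 and −0.09 for Ifitm10.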
